A study of Mus musculus with 8 samples.

Results

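The haemoglobin genes and the red-cell gene for haem synthesis were taken as a readout of blood in hippocampal RNA, and were picked by name from the deposited count table. They are 5 genes, the adult α-globins Hba-a1 and Hba-a2, the adult β-globins Hbb-bs and Hbb-bt, and Alas2, out of 40659 gene identifiers in the table. All 5 were in the table and all 5 were among the 17252 genes that passed the filter on low counts. The study asked what changes in the hippocampus when the microRNA miR-708-5p is overexpressed there. PolyA RNA was sequenced from whole hippocampi of 8 male wild-type C57BL/6JRj mice. Recombinant adeno-associated virus had been injected into the dorsal and ventral hippocampus at 7 to 8 weeks of age and tissue was taken at 12 to 13 weeks. The hp708 group (n = 4) received a virus that expresses a miR-708-5p hairpin from the human synapsin promoter, which is active in neurons, and the hpCTL group (n = 4) received a control virus, so surgery and viral infection are common to both groups. The methods for the sequenced mice do not say whether blood was washed out of the vessels before dissection. Each library is 1 animal.

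Libraries held 22606824 to 28462428 counts. The hippocampal neuron markers Wfs1, Spink8, Prox1 and 7 others summed to 4790 to 6526 CPM (counts scaled to library size) in every library, so the markers of the labelled tissue were present. For 1 animal the sources disagree: GEO's label puts the library called hp708 replicate 1 here in the overexpression group, whereas the study's own data for a qPCR panel name that animal as a control. It was kept as labelled, and the member results that rest on the group are also given without it. Choroid plexus markers, a tissue that borders the hippocampus, summed to 56.8 to 2108 CPM in hpCTL and 111 to 4498 CPM in hp708.

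Adult haemoglobin is a tetramer of α and β chains, each of which holds a haem group that binds oxygen. Haem is made from glycine and succinyl-CoA in a pathway that begins and ends in mitochondria. Its first and rate-limiting step is carried out by 5-aminolevulinate synthase, which exists as a housekeeping enzyme, Alas1, and as an enzyme of erythroid cells, Alas2. Circulating reticulocytes still hold globin mRNA and Alas2 mRNA, so tissue that contains blood yields reads from both.

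The α-globin genes lie on chromosome 11 and the β-globin genes on chromosome 7, so that members of each pair are neighbours, while Alas2 lies on the X chromosome. In GRCm39 Hba-a1 (ENSMUSG00000069919) spans chr11:32233186-32234504 and Hba-a2 (ENSMUSG00000069917) spans chr11:32246168-32247320, both on the plus strand. Hbb-bs (ENSMUSG00000052305) spans chr7:103475730-103482989 and Hbb-bt (ENSMUSG00000073940) spans chr7:103461727-103465047, both on the minus strand. Alas2 (ENSMUSG00000025270) spans chrX:149330371-149353634 on the plus strand. The canonical transcript had 3 exons in each globin gene and 11 in Alas2.

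The proximal promoters of the members are shown for comparison. Whether they have a part in how the members varied between animals was not tested. The sequences are the 130 bases before the RefSeq start of each gene, from RefSeq promoter records in GRCm38.p6, in which all 5 members were found. Capitals mark CACCC, the core bound by Krüppel-like factors such as the erythroid factor KLF1, GATA, the core bound by GATA factors, CCAAT, and TATAA, the core of the TATA box, on either strand. No capitalised matches overlap. Hba-a1 lies at chr11:32283542-32283671 (plus strand), Hbb-bs at chr7:103827929-103828058 (minus strand), Hbb-bt at chr7:103813924-103814053 (minus strand) and Alas2 at chrX:150547287-150547416 (plus strand).
Hba-a1: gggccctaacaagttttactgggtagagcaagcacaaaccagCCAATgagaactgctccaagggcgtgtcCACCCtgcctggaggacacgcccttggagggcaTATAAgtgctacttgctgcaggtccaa
Hbb-bs: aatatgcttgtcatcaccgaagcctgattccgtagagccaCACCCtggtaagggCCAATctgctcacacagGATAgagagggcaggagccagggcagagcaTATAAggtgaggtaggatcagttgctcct
Hbb-bt: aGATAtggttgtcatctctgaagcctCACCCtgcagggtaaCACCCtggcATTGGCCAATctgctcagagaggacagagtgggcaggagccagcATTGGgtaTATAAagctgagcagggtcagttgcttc
Alas2: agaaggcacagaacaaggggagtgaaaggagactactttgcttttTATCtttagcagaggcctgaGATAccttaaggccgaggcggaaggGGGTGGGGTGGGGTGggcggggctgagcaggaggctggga

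The Hba-a2 sequence is not printed because 127 of its 130 bases are those of Hba-a1, offset by 3 bases. Every globin window held a CACCC match, a CCAAT match and a single TATAA match. The last began at position -27 in Hba-a1, -30 in Hba-a2, -29 in Hbb-bs and -28 in Hbb-bt, counted back from the start. Alas2 held no CCAAT or TATAA, but 3 adjacent CACCC matches on the minus strand and 2 GATA matches. GATA was also found once in each β-globin window and in neither α-globin window. Of 32851 RefSeq promoters, 33.7% held CACCC in the same 130 bases, 31.7% GATA, 22.4% CCAAT and 12.7% TATAA. These matches describe letters and do not show that a factor binds.

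Within each pair the coding sequences can hardly be told apart. The open reading frames of Hba-a1 and Hba-a2 are 429 bases long and differ at 1 base, and the encoded 142 residues are the same. For Hbb-bs and Hbb-bt the reading frames of 444 bases also differ at 1 base, and the encoded 147 residues are the same. Hba-a1 and Hbb-bs, in contrast, share 55.6% of aligned bases. Of all 50-base stretches of the canonical mRNA, 82.7% in Hba-a1, 91.6% in Hba-a2, 62.3% in Hbb-bs and 58.2% in Hbb-bt also occur in another globin gene, against 0% for Alas2. How the counting treated reads with several matches is not given in the sources used here. The split between the 2 members of a pair is therefore uncertain, and so are the absolute globin levels and the sum of each pair, since such reads may have been dropped or counted more than once. Alas2 has no such stretches. Part of Alas2 (311 of 2686 exonic bases) overlaps Apex2 on the opposite strand, and a strand setting of the counting is not given either. Apex2 had a mean of 5.78 CPM and a log2 fold change of 0.09 between the groups.

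Globin reads were a small share of every library. Together the 4 globin genes took 0.00876%, 0.0130%, 0.00641% and 0.0126% of all counts in hpCTL replicates 1 to 4. In hp708 replicates 1 to 4 they took 0.00758%, 0.00789%, 0.00961% and 0.00660%. hpCTL replicates 2 and 4 held the most globin, hpCTL replicate 3 held the least of all 8 libraries, and the hp708 libraries lay between these extremes. Levels of different genes were compared as CPM per kilobase of canonical transcript. On this scale Hbb-bs was highest in every library, at 50.9 to 101 CPM per kb, and its range did not overlap that of any other member. The order of the globins is that of the deposited counts, and reads shared between genes, which are more frequent in the α than in the β pair, could change it. Hba-a1 followed with 20.3 to 38.3 and Hba-a2 with 15.5 to 31.8 CPM per kb, ranges that overlap. Hbb-bt had 6.76 to 18.6 CPM per kb and also overlapped with Hba-a2, although it was the lower of these 2 in each library. Alas2 was lowest, at 1.09 to 2.43 CPM per kb.

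The α-globins were counted at moderate depth. Hba-a1 had 569, 647, 375 and 712 counts in hpCTL replicates 1 to 4, and 468, 392, 450 and 363 counts in hp708 replicates 1 to 4. As CPM these were 20.3, 28.3, 15.4 and 26.7 in hpCTL and 17.0, 17.0, 19.2 and 15.0 in hp708. The hp708 libraries spanned a narrow interval whose lowest value was just under the lowest hpCTL library, and the groups overlapped. Mean Hba-a1 was 22.7 CPM ± 5.97 (SD, n = 4) in hpCTL and 17.1 CPM ± 1.71 (SD, n = 4) in hp708, with a log2 fold change of -0.37 (SE 0.20, FDR = 0.720 in edgeR's quasi-likelihood test). Hba-a2 had 381, 471, 245 and 484 counts in hpCTL and 290, 316, 357 and 253 counts in hp708. All 4 hp708 libraries of Hba-a2 fell inside the hpCTL range of 10.1 to 20.6 CPM, and its log2 fold change was -0.33 (SE 0.27, FDR = 0.819 in the same edgeR test).

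Of the β-globins, Hbb-bs was the most abundant member by counts as well. It had 1325, 1537, 824 and 1778 counts in hpCTL and 1139, 895, 1253 and 859 counts in hp708. Mean Hbb-bs was 53.8 CPM ± 16.2 (SD, n = 4) in hpCTL and 42.3 CPM ± 7.80 (SD, n = 4) in hp708, and every hp708 library lay within the hpCTL range. The log2 fold change was -0.28 (SE 0.24, FDR = 0.830 in the edgeR test). Hbb-bt, with 219, 293, 116 and 349 counts in hpCTL and 187, 180, 229 and 142 counts in hp708, varied most, by 2.75 times between the lowest and the highest library. In this gene too the hp708 libraries were inside the hpCTL range, and the log2 fold change was -0.28 (SE 0.36, FDR = 0.891 in the edgeR test).

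Alas2 was the rarest member. Its counts were 85, 113, 54 and 115 in hpCTL and 83, 64, 68 and 60 in hp708. In CPM these were 3.03, 4.94, 2.22 and 4.32 in hpCTL, and 3.01, 2.78, 2.90 and 2.48 in hp708. The same pair of hpCTL libraries as for the globins, replicates 2 and 4, stood above all others, and replicate 3 of hpCTL was again the lowest. Mean Alas2 was 3.63 CPM ± 1.23 (SD, n = 4) in hpCTL and 2.79 CPM ± 0.229 (SD, n = 4) in hp708, a log2 fold change of -0.33 (SE 0.26, FDR = 0.805 in the edgeR test).

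**Figure D1:**
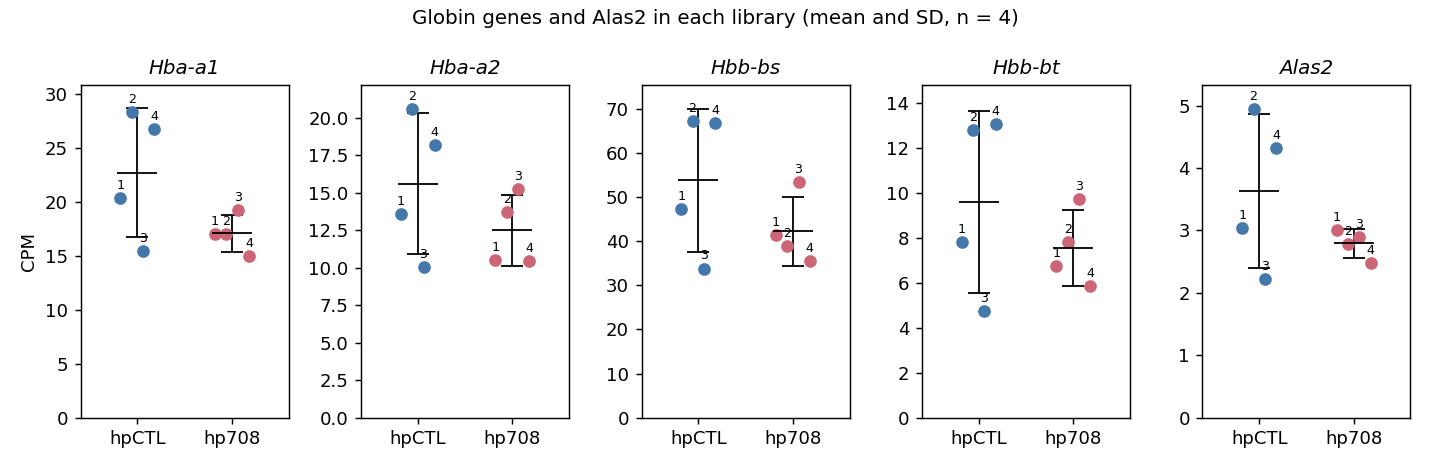
CPM of each globin gene and of Alas2 (vertical axes, each from 0) in the 4 hpCTL (blue) and 4 hp708 (red) libraries; numbers are replicates, horizontal lines are means and bars are SD. hpCTL replicates 2 and 4 are the highest libraries in all 5 panels, and the groups overlap in each.

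No member was called between hp708 and hpCTL, and all 5 had a lower mean in hp708. The edgeR test called 0 of 5, with 0 at an unadjusted p below 0.05, and DESeq2 and the likelihood ratio test with the same 3 surrogate variables, which stand for unlabelled variation between libraries, also called 0. Across the table the edgeR test called 1 of 17252 genes, a background of 0.0058%. All 5 log2 fold changes were below 0, with a median of -0.33 against -0.00913 over all tested genes, and 841 genes, 4.87% of those tested, were lower in hp708 at an unadjusted p below 0.05. In none of the members did every hp708 library lie below every hpCTL library, which was the case for 140 genes or 0.812% of those tested. The members shared most of their profile over the libraries, so their common sign is not 5 independent observations. In bulk RNA, fewer cells of a type and less RNA per cell cannot be told apart.

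The direction held in all fits, while its size turned on single libraries. Without hpCTL replicate 3, the library with the least globin, the log2 fold changes were -0.61 for Hba-a1, -0.63 for Hba-a2, -0.57 for Hbb-bs, -0.68 for Hbb-bt and -0.60 for Alas2. All 5 then had an unadjusted p below 0.05 (0.00609 for Hba-a1 to 0.0481 for Hbb-bt in edgeR's quasi-likelihood test), but the FDR was 1.00 for each. Over all genes, 520 of 17452 had an unadjusted p below 0.05 in the same test. Leaving out hp708 replicate 3, the hp708 library with the most globin, gave -0.54 for Hba-a1, -0.59 for Hba-a2, -0.53 for Hbb-bs, -0.63 for Hbb-bt and -0.47 for Alas2. Without hp708 replicate 1, the animal with 2 listings, the values were -0.51 for Hba-a1, -0.39 for Hba-a2, -0.48 for Hbb-bs, -0.47 for Hbb-bt and -0.52 for Alas2, with FDR between 0.333 and 0.639 in the edgeR test. Without hpCTL replicate 2, the library with the most globin, they were -0.22 for Hba-a1, -0.15 for Hba-a2, -0.12 for Hbb-bs, -0.07 for Hbb-bt and -0.11 for Alas2. Requiring at least 10 counts in every library gave -0.56 for Hbb-bt to -0.50 for Hba-a2.

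Summed over the 4 genes, the globin level was 89.0, 129, 64.0 and 125 CPM in hpCTL and 75.5, 77.5, 97.6 and 66.8 CPM in hp708. Its mean was 6.61 ± 0.47 on the log2 CPM scale (SD, n = 4) in hpCTL and 6.30 ± 0.23 in hp708. The difference of -0.32 was smaller than the pooled SD of 0.37. Without hpCTL replicate 2 the difference was -0.18 without hpCTL replicate 4 it was -0.20, and without hpCTL replicate 3 it was -0.52. Without hp708 replicate 1 it was -0.29. hpCTL animals were more spread out than hp708 animals, in which the 4 levels stayed between 66.8 and 97.6 CPM. With 4 animals a group the difference in spread was not tested.

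All 5 members varied together between animals. Over the 8 libraries, Pearson's r of log2 CPM ranged from 0.895 (Hba-a2 with Alas2) to 0.968 (Hba-a1 with Hbb-bs, and Hbb-bs with Hbb-bt) in the 10 pairs of members. Spearman's rho ranged from 0.786 (Hbb-bt with Alas2) to 0.976 (Hba-a2 with Hbb-bt). Each pair had an adjusted p between 0.000992 and 0.00243 for r and between 0.00397 and 0.0279 for rho, by exact permutation of 8 libraries, two-sided and Benjamini-Hochberg adjusted over the 10 pairs. When the 2 libraries farthest from the median were left out, which were hpCTL replicates 2 and 4 for 6 of the pairs, r was between 0.756 (Hba-a2 with Alas2) and 0.960 (Hba-a2 with Hbb-bt). Within a pair of globins that share mRNA stretches a common profile can come from shared reads. The α-β pairs lie on different chromosomes with 55.6% identity, and Alas2 shares no stretch with any globin, so these are the pairs that carry the result. Alas2 had r of 0.964 with Hba-a1 and 0.931 with Hbb-bs. Without hp708 replicate 1 the 10 values of r ranged from 0.927 (Hba-a1 with Hbb-bt) to 0.979 (Hba-a2 with Hbb-bt). Groups of 4 are too small for a correlation within hpCTL or within hp708.

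**Figure D2:**
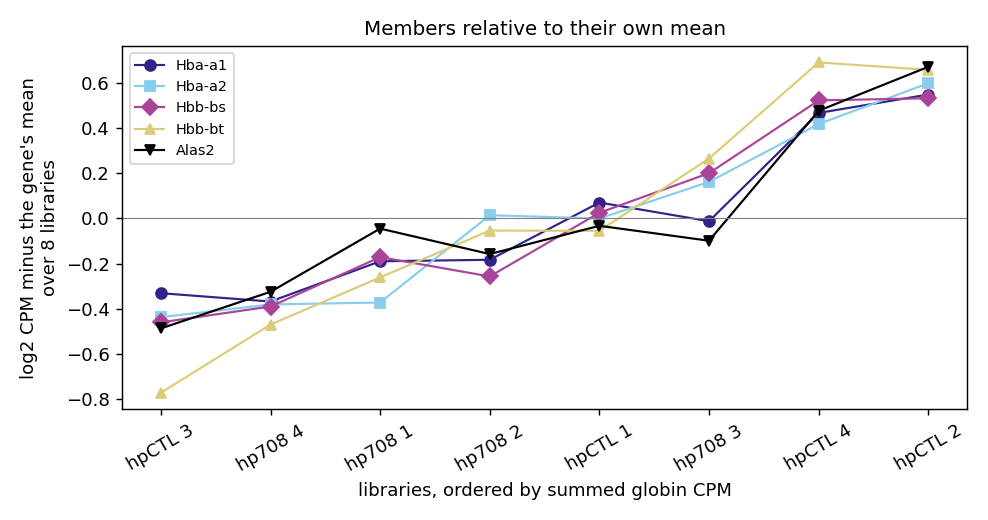
Log2 CPM of each member minus its own mean over the 8 libraries (vertical axis), with libraries ordered from the lowest to the highest summed globin CPM (horizontal axis); each line is 1 gene. The 5 lines run together from hpCTL replicate 3 up to hpCTL replicates 4 and 2, with Hbb-bt covering the widest range.

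The proportions of the members were steadier than their levels. α-globin counts per kb were 0.590, 0.588, 0.631 and 0.540 of the β-globin counts per kb in hpCTL, and 0.546, 0.636, 0.525 and 0.590 in hp708. The means were 0.587 ± 0.0373 (SD, n = 4) and 0.574 ± 0.0492 (SD, n = 4), so the groups differed by less than their spread. Between the lowest and the highest library this ratio varied 1.21 times, while the single genes varied 1.89 to 2.75 times. The chi-square of α against β counts over the 8 libraries was 2.45 per degree of freedom, where counting error alone gives about 1. Hba-a1 exceeded Hba-a2 by 1.09 to 1.42 times per kb and Hbb-bs exceeded Hbb-bt by 5.27 to 7.53 times, and the size of all 3 ratios is subject to the unknown treatment of shared reads. Without hp708 replicate 1 the α to β ratio of the other hp708 libraries was still 0.525 to 0.636.

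Alas2 kept to the globin level within counting error. Globin counts per kb were 87.9, 78.2, 86.5 and 86.6 times those of Alas2 in hpCTL and 75.2, 83.5, 101 and 80.7 times in hp708. The chi-square per degree of freedom was 0.595, so at 54 to 115 Alas2 counts a library no departure from a constant ratio was detectable. Fitted against the summed globin level with group in the model, the log2 level of Alas2 had a slope of 0.95 (SE 0.27) per log2 unit of globin, where a slope of 1 is a constant ratio. In the edgeR test this had an unadjusted p of 0.00604, rank 20 of 17248 genes, and an FDR of 1.00. Leaving out hp708 replicate 1 gave a slope of 0.97. Leaving out hpCTL replicate 3 gave a slope of 0.80 (SE 0.43), for which edgeR's quasi-likelihood test gave an unadjusted p of 0.104 and rank 2522. With a replicate block the slope was 0.85, with an unadjusted p of 0.0438 in edgeR's test and rank 663.

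**Figure D3:**
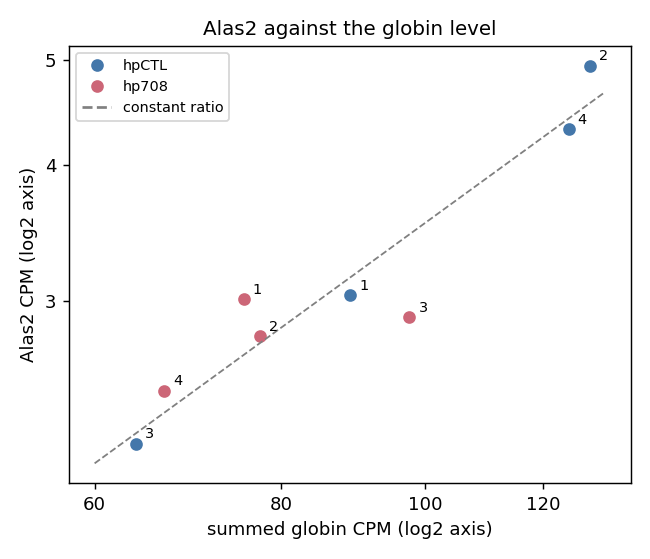
Alas2 CPM (vertical axis, log2) against the summed CPM of the 4 globin genes (horizontal axis, log2) in the hpCTL (blue) and hp708 (red) libraries; numbers are replicates and the dashed line is a constant ratio at the geometric mean of the 8 ratios. The points follow the line, with hp708 replicate 3 below it and hp708 replicate 1 above it.

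No gene passed the test for following the globin level. Of 17248 genes, the edgeR test called 0 that rose with it (0%) and 0 that fell (0%), with 115 rising and 118 falling at an unadjusted p below 0.05. DESeq2 called 0 that rose and 2 that fell. By likeness of profile alone, the summed globin log2 CPM was most like Map3k20, a stress-activated kinase (r = 0.983), and next like Alas2 (r = 0.944), among 15485 genes with a mean of at least 1 CPM. The following 8 were Axin2, Lefty2, Gsr, Adhfe1, Aida, Rprd1b, Crkl and Slc27a2, with r between 0.869 and 0.890. These r are given as a description, since they were selected as the highest over 8 shared libraries. Map3k20 moved far less than the members, from 8.45 to 11.1 CPM, and Alas2 from 2.22 to 4.94 CPM.

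Most other globin genes were too low to be tested. The embryonic genes Hba-x, Hbb-bh1 and Hbb-bh2 had 0 counts in all 8 libraries, which allows up to 0.107 to 0.131 CPM per library at a floor of 3 counts. Embryonic Hbb-y had 0 to 2 counts a library, and Hbq1a and Hbq1b, 2 copies of the θ-globin gene, had 0 to 13. Muscle myoglobin, Mb, had 0 to 9 counts. Neuroglobin, Ngb, the globin of neurons, and cytoglobin, Cygb, were tested and had log2 fold changes of 0.18 (SE 0.40) and -0.10 (SE 0.18), with FDR of 0.943 and 0.929 in the edgeR test. Slopes on the globin level were 0.09 for Ngb and 0.53 for Cygb, with unadjusted p of 0.904 and 0.0812 in the edgeR test.

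The rest of the haem pathway, which every cell uses, gave no call with either group or globin level. All 8 further enzymes, from Alas1 to ferrochelatase (Fech), passed the filter and 0 were called between the groups, with 5 below 0 and a median log2 fold change of -0.0248. Urod, the decarboxylase of uroporphyrinogen, was the 1 enzyme with an unadjusted p below 0.05 (log2 fold change -0.13, FDR = 0.648 in the edgeR test). Of the exonic bases of Urod, 57.9% overlap a gene on the opposite strand, so its counts depend on the strand setting, which is not given. Alas1 had 65.1 CPM ± 1.99 (SD, n = 4) in hpCTL and 63.1 CPM ± 0.275 (SD, n = 4) in hp708, and its slope on the globin level was -0.0010. None of the 8 enzymes had a slope with an unadjusted p below 0.05, and the median slope was -0.0309 against 0.95 for Alas2. The difference between the slopes of Alas2 and Alas1 was not tested.

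Genes that move, clear and store haem and iron were likewise not called in either comparison. Among 9 mitochondrial transporters and iron-sulphur cluster genes, such as mitoferrin (Slc25a37), 7 were below 0 with a median of -0.0499. Of 11 genes for scavenging and breakdown 9 were tested, including the haem oxygenase Hmox2 (log2 fold change -0.09, SE 0.06), and the median was -0.0816. Hmox2 shares 75.8% of its exonic bases with a gene on the opposite strand, so its counts also depend on the strand setting. For Hmox1, the inducible haem oxygenase, the fit and the means differed in sign, with a fitted log2 fold change of -0.16 (SE 0.12) and means of 10.9 CPM in hpCTL and 11.3 CPM in hp708. The plasma scavengers Hp, which binds free haemoglobin, and Hpx, which binds free haem, had 2 to 41 and 2 to 11 counts a library and were not tested. Lrp1, the receptor for haemopexin and many other ligands, had a log2 fold change of 0.15 at an unadjusted p of 0.0288 (FDR = 0.599 in the edgeR test). For 12 tested genes of iron handling the median was 0.00254, with transferrin receptor Tfrc at 0.19 (unadjusted p = 0.00924, FDR = 0.511 in the edgeR test) and ferritin light chain Ftl1 at -0.25 (unadjusted p = 0.0174, FDR = 0.561 in the edgeR test). Flvcr2, a transporter of the blood-brain barrier, had a slope of 0.93 on the globin level at an unadjusted p of 0.0470 in the edgeR test, the 1 of 9 scavenging and breakdown genes to do so.

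**Figure D4:**
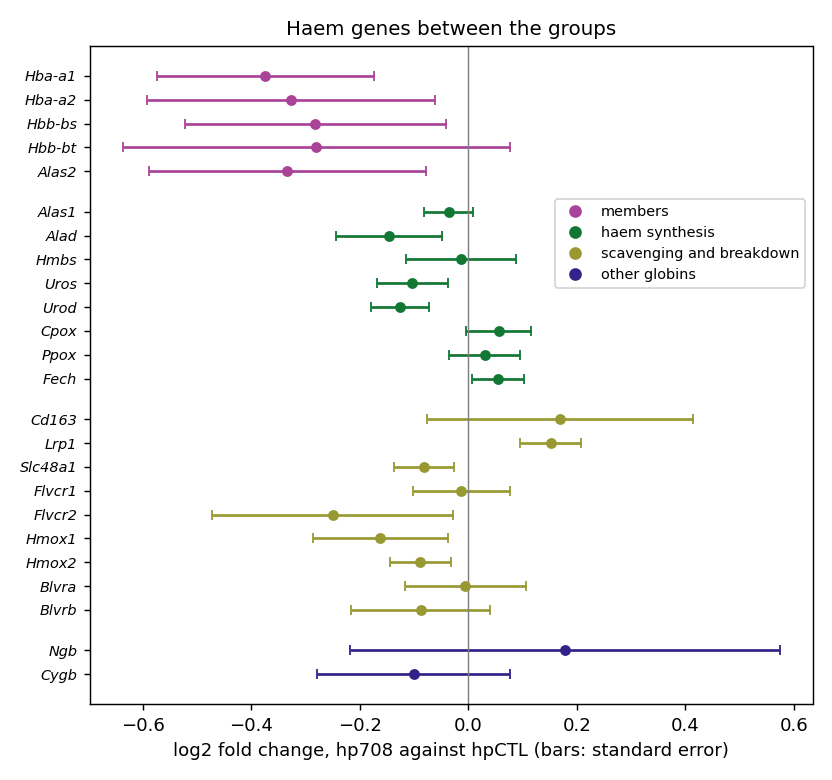
Log2 fold change of hp708 against hpCTL (horizontal axis; points are estimates of the edgeR fit with 3 surrogate variables, bars are standard errors) for the 5 members, the 8 further haem synthesis enzymes, 9 scavenging and breakdown genes and 2 other globins. The members lie between -0.37 and -0.28 with wide errors, and the haem synthesis enzymes between -0.15 and 0.06 with narrow ones.

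Markers of red cells other than globins were close to the limit of counting. Of 22 such genes 21 were in the table and 8 were tested, and most of those 8, such as the spectrin Sptb, are also expressed in brain. Among the defining membrane proteins, band 3 (Slc4a1) had 1 to 10 counts a library, Epb42 had 0 to 4, and Rhag had 0 in every library. The erythroid factors Klf1 and Gata1 had 1 to 4 and 0 to 2 counts. Slc4a1 had its highest count, 10, in hpCTL replicate 2, the library with the highest globin level, and Gata1 was counted in that library alone. At these counts no relation with the globin level could be tested. The list's summed level was 338 to 426 CPM in hpCTL and 361 to 439 CPM in hp708, a sum carried mostly by Sptb (207 to 297 CPM). None of the 8 tested genes was called, 6 of them were below 0, and their median log2 fold change was -0.123. In the edgeR test Ube2l6 (-0.66) and Tent5c (-0.39) were lower and Sptb (0.14) was higher at an unadjusted p below 0.05, with FDR of 0.329, 0.511 and 0.563. For Ube2l6 and Tent5c the group means differed less than this fit with surrogate variables. Mean Ube2l6 was 14.3 CPM in hpCTL and 11.1 CPM in hp708, and mean Tent5c was 21.0 and 19.8 CPM. Their slopes on the globin level were -0.05 for Ube2l6 and -0.31 for Tent5c. The median slope of the 8 genes on the globin level was -0.0544.

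Other cells of blood, vessels and adjoining tissue were read in the same libraries as the members. Neutrophil markers summed to 18.7 to 35.2 CPM in hpCTL and 20.1 to 35.6 CPM in hp708, and platelet markers to 4.89 to 6.32 and 4.34 to 6.05 CPM, with 2 of 10 genes tested in each list. Most of the neutrophil sum was Csf3r, the receptor for granulocyte colony-stimulating factor (17.8 to 32.4 CPM), which had a log2 fold change of -0.31 at an unadjusted p of 0.00695 in the edgeR test and was not called. The granule genes S100a8, S100a9, Ngp and Camp had 0 to 11 counts a library and were not tested. Lymphocyte markers had a median log2 fold change of -0.60, with 6 of 10 lower at an unadjusted p below 0.05, against 4.87% of all genes, and none called, and summed to 1927 to 5520 CPM in hpCTL and 1869 to 4548 CPM in hp708. These are values of the fit with surrogate variables, and some group means differed less, as for Cd79a with 3.77 CPM in hpCTL and 3.69 CPM in hp708 against a fitted -0.46. hpCTL replicate 3, the library with the least globin, had the highest sum of lymphocyte markers, 5520 CPM. Most of it was the immunoglobulin genes Igkc (3512 CPM) and Ighm (1972 CPM). Endothelial markers stood at 379 to 446 CPM in hpCTL and 395 to 437 CPM in hp708, with a median slope of -0.0445. Meningeal fibroblast markers had a median slope of -0.123. Microglia markers had a median log2 fold change of -0.229, with 9 of 9 below 0, 5 of them at an unadjusted p below 0.05 and none called, and a median slope of -0.168. Hippocampal neuron markers had a median log2 fold change of 0.119, with 0 of 10 below 0, 2 higher at an unadjusted p below 0.05, against 487 of 17252 genes, and none called.

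Choroid plexus markers were above 0 in slope for 10 of 10 genes, with a median of 3.27, and none had an unadjusted p below 0.05. The median slope over all genes in that fit was -0.00761. All 10 markers were highest in hpCTL replicates 2 and 4 and hp708 replicates 1 and 2. Their common sign is therefore not 10 independent observations. Ttr was the most abundant of these markers in every library, with 4106 of the summed 4498 CPM in hp708 replicate 2. Their sum was 1670 and 2108 CPM in hpCTL replicates 2 and 4, the libraries with the most globin, and 56.8 and 154 CPM in hpCTL replicates 1 and 3. In hp708 it was higher still in replicates 1 and 2, at 3059 and 4498 CPM, where globin was 75.5 and 77.5 CPM, and only 111 CPM in hp708 replicate 3, where globin reached 97.6 CPM. The 2 sums thus did not follow one order in either group, since hpCTL replicate 3 also had more choroid plexus signal and less globin than hpCTL replicate 1. Without hp708 replicate 1, the animal with 2 listings, hp708 replicate 2 remains a library with high choroid plexus signal and 77.5 CPM of globin. The part of choroid plexus, lymphocytes, microglia, neurons or vessels in the globin level and in its difference between the groups was not tested.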

How the data were processed

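PolyA RNA of 4 hpCTL and 4 hp708 hippocampi was sequenced (Illumina TruSeq mRNA). Per the submitters' processing notes, the authors used STAR 2.7.8a, GRCm39 and featureCounts 1.6.4, and deposited raw counts per gene without normalization, in 1 table. Columns were matched to samples by animal number and grouped by the labels. Of 40659 identifiers, 39641 were named from GENCODE of the same build in a later release. The 1018 unnamed ones stayed in library sizes and tests.

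Genes kept by filterByExpr were tested with edgeR 4.0.16 (quasi-likelihood as in edgeR 3, TMM, R 4.3.3) with 3 surrogate variables estimated by svaseq in sva 3.50.0. P-values were adjusted by Benjamini-Hochberg over all tested genes and called at an FDR below 0.05. The slope on summed globin log2 CPM was tested with group as covariate and no surrogate variables, leaving out the 4 globins. DESeq2 1.42.0 was an alternative, as were other filters, scalings, surrogate variables and leaving out each library. Log2 CPM for correlations and profiles used a prior count of 2. Correlations were tested by exact permutation (scipy 1.17.1). Intervals and floors cover counting error only. Libraries of a group differed by a chi-square of 10 to 46.2 per degree of freedom, so none was a copy. The functions were checked on simulated counts.

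The members, the gene lists and the tests were chosen with earlier results of these data known. Genes named are the members, those of the lists and the 10 most like the globin level. Apex2 is named in addition because its exons overlap Alas2. Some genes of the red cell list are not reported here by name.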

Additional observations from a re-analysis of the deposited data

How the results depend on the processing

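Fold changes of the 5 members kept their negative sign and 0 were called in all 13 alternative fits and in the 16 fits that left out 1 library. Hba-a1 ranged from -0.61 to -0.22 over the latter. An unadjusted p below 0.05 in the edgeR test was reached by 1 member (Hba-a1) without surrogate variables, against 312 of 17252 genes. With at least 10 counts in every library it was reached by 2 (Hba-a1 and Hbb-bs), against 907 of 15870 genes. With 3 surrogate variables, 5 members reached it without hpCTL replicate 3 (520 of 17452 genes) and 3 without hp708 replicate 3 (1402 of 17488). There was 1 each without hpCTL replicate 1 (1692 of 17495), hp708 replicate 1 (2119 of 17425) or hp708 replicate 2 (2097 of 17463). Leaving out each of the others gave 0. Without surrogate variables, leaving out hpCTL replicate 3 gave 5, hpCTL replicate 1 or hp708 replicate 3 gave 1 each, and the others 0. Over the whole table, genes called at an FDR below 0.05 numbered 1 with the main settings, 127 by likelihood ratio test, 93 by DESeq2, 12 with no filter on low counts, 0 with no surrogate variables and 56 without hp708 replicate 1. All 10 correlations kept an adjusted p below 0.05 in every alternative. With a replicate block, called genes on the globin level numbered 1 rising and 5 falling, and DESeq2 gave 2 falling. Leaving out a library gave 0 to 1 rising genes, the 1 being without hp708 replicate 4, and 0 falling. The replicate block changed no call of a member. Replicate numbers were used only to name libraries. Deviations of same-numbered libraries correlated between -0.0411 and 0.0177, and those of different-numbered libraries between -0.227 and 0.266. With so few libraries these values cannot exclude a pairing by number. The cause of the differences between fits was not tested. The slope of Alas2 ranged from 0.80 to 1.09 when a library was left out. Alas2 rested on 54 to 115 counts a library, and 8 of the 21 red cell genes in the table passed the filter on low counts.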
